A study of Mus musculus with 18 samples.

Results

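Dendritic cells (DCs) were described here as the 202 of 20982 hematopoietic progenitors (HPs) whose deposited cluster code begins with DC. HPs were lineage-negative Kit-positive BM cells of C57B6/J mice, sorted at embryonic day 16.5 (E16.5, 2 libraries), at E18.5, at postnatal day 0 (P0) and from adult mice (1 library each). Per the study's methods several mice were pooled for each library, and the lineage-negative fraction was low for B220, CD4, CD8, Gr-1 and Ter119. No genetic change and no treatment is named in the labels of any group. Transcripts were counted as unique molecular identifiers (UMIs) with the 10X 3' v3.1 chemistry, and oligo-tagged antibodies (CITE-Seq) were counted in the same cells.

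DCs take up antigen and present it to T cells on MHC class II. Conventional type 1 DCs (cDC1s) need Irf8 and Batf3, carry the dead-cell receptor Clec9a and the chemokine receptor Xcr1, and present captured antigen on class I as well. Type 2 cells (cDC2s) carry Sirpa and Cd209a and depend on Irf4 and Klf4, while plasmacytoid DCs (pDCs) carry Siglech, depend on Tcf4 and make type I interferon. All arise from Flt3-positive precursors that lose Kit as they mature. B220 is carried by pDCs, CD8 by some cDC1s and CD4 by some cDC2s, so that the lineage gate can have removed such cells.

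The codes were DC1 at E16.5, DC2 at E18.5 and DC3 at P0, and no adult code began with DC. In E16.5 replicate 1, 9 of 560 HPs were DCs (1.61%, 95% exact binomial interval 0.737 to 3.03). In E16.5 replicate 2 they were 56 of 4752 (1.18%, 0.891 to 1.53), at E18.5 43 of 3477 (1.24%, 0.896 to 1.66) and at P0 94 of 6208 (1.51%, 1.23 to 1.85). The intervals of the 4 shares overlapped, but they compare codes only. The E18.5 cells so coded lacked Clec9a, and E18.5 cells with a cDC1 profile were coded Mono1ii, as described below. In the adult 0 of 5985 HPs had such a code, which allows a share of up to 0.0501% (3 counts) or, by the exact binomial bound used for the other shares, 0.0616%. Codes were given to whole clusters, so that these bounds concern the code only. They do not limit the share of adult cells with DC genes, some of which were coded Mono6, as described below. All intervals given here cover counting error only, and as E18.5, P0 and adult had 1 library each, differences between stages were not tested.

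Of all clusters of their stage the E16.5 and P0 DCs had the highest class II sums, and most class II genes share a promoter layout in which the factor NF-Y binds an inverted CCAAT box. The letters CCAAT or ATTGG, its reverse complement, were searched so on both strands, in each gene's window (250 bases before to 50 after the start) in RefSeq for GRCm38.p6. At least 1 of them stood in the windows of 8 of the 10 matched genes of a 13-gene class II list (8 of 11 windows, 72.7%), against 37.4% of 32851 windows of all genes. The match is a description of letters only. The 150 bases before the start of H2-Aa (chr17:34287824-34287973, minus strand), H2-Eb1 (chr17:34305717-34305866, plus strand) and H2-DMb1 (chr17:34153041-34153190, plus strand) are shown because they encode parts of the class II pathway whose levels follow, with ATTGG and CCAAT in capitals, and that of Clec9a (chr6:129408712-129408861, plus strand), which held neither, is shown for comparison.
H2-Aa: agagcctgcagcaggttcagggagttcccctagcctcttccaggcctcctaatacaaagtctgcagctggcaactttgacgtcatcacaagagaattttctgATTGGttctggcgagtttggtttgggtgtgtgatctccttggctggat
H2-Eb1: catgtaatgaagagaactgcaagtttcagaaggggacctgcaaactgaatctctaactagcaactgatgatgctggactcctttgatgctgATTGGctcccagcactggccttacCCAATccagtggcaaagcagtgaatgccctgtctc
H2-DMb1: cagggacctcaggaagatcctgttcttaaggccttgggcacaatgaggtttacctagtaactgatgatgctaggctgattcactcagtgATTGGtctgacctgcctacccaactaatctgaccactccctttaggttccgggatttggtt
Clec9a: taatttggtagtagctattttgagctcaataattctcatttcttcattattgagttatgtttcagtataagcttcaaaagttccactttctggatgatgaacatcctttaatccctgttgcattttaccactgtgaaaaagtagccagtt
In H2-Aa, H2-Eb1 and H2-DMb1 the ATTGG began 48, 59 and 61 bases before the start, and in H2-Oa, H2-Ob and H2-DMb2 43, 57 and 90 bases. H2-Aa and H2-Eb1 encode chains of class II molecules, while H2-DMb1 encodes part of the chaperone that loads them with peptide.

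Depth differed between the libraries, where DCs are again the cells with a DC code, DC2 included. The DCs held 201791 UMIs in E16.5 replicate 1, 813945 in E16.5 replicate 2, 1159475 at E18.5 and 1151414 at P0. The median DC held 18224, 11998, 26272 and 9679 UMIs, against 23330, 18932, 12031.5 and 19612 in the other HPs of the same libraries. Of all HPs, 1689 had a barcode that also occurred in another HP library, among them 8 DCs (4 in E16.5 replicate 1 and 4 at E18.5). The cells that shared those 8 barcodes had no DC code and held between 407 and 1332 UMIs. Levels below are CPM (UMIs of a gene per 1000000 UMIs) summed over the DCs of a library, with 95% exact Poisson intervals in parentheses.

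The label was checked against Clec9a, Irf8 and H2-Aa, and at E18.5 the data went against it. Clec9a stood at 228 CPM (167 to 304) in E16.5 replicate 1, 179 CPM (151 to 211) in E16.5 replicate 2, 0 CPM (upper bound 3.18) at E18.5 and 117 CPM (98.3 to 139) at P0. The other HPs of these libraries held 0.0726, 0.137, 2.67 and 0.111 CPM. Of the 4 groups only DC2, with 43 cells, had no Clec9a UMI in any cell. Irf8, the factor that cDC1s and pDCs depend on, stood at 1769, 1922, 12.9 and 1014 CPM in the same order, and H2-Aa at 8063, 6857, 35.4 and 4878 CPM. At E18.5 both were below the other HPs of the library (73.3 CPM for Irf8, 138 for H2-Aa), and only 3 of the 43 DC2 cells held an H2-Aa UMI. Clec9a UMIs were found in 9 of 9, 49 of 56 and 61 of 94 DCs at E16.5 replicate 1, E16.5 replicate 2 and P0. Since the clusters were made from the same transcripts, these levels are a description. DC2 is called below by its code.

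**Figure D1:**
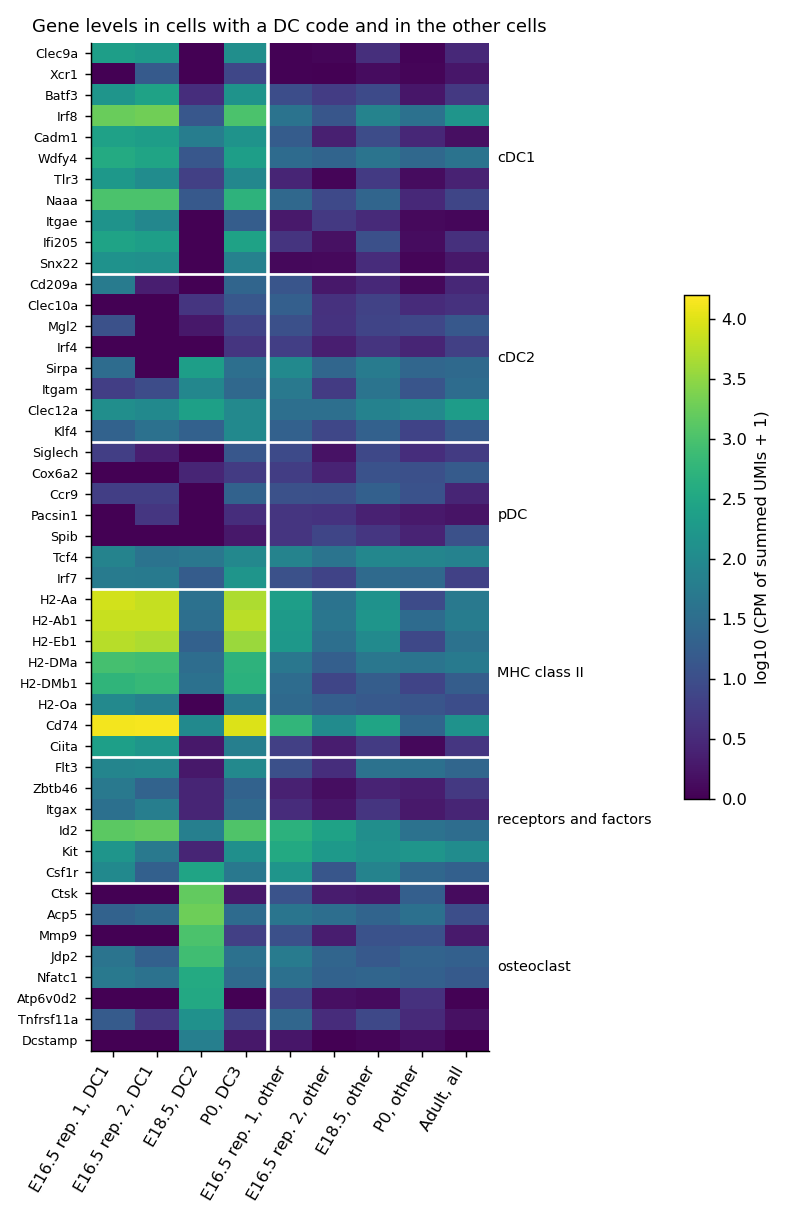
Levels of named genes (rows, grouped by list) in the cells with a DC code (left 4 columns) and in all other HPs of each library (right 5 columns), as log10 of CPM + 1. The DC1 and DC3 columns are bright for the cDC1 and MHC class II rows, while the DC2 column at E18.5 is dark there and bright for the osteoclast rows.

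At E16.5 the DCs had a cDC1 profile in both libraries. The 10 leading genes by ratio over the other HPs were Ifi205, Irf8, Naaa, Plbd1, H2-Ab1, H2-Aa, Rtl8b, H2-Eb1, Cst3 and Cd74 in replicate 1, and Clec9a, Tlr3, Snx22, Ifi205, Plbd1, Cadm1, Rab7b, Fcrla, H2-Aa and H2-Ab1 in replicate 2. Ifi205, Plbd1, H2-Aa and H2-Ab1 were in both. A leading gene needed at least 50 UMIs in the DCs. In replicate 1, whose DCs held 201791 UMIs in all, this left out Clec9a at 228 CPM. Overlaps with the list of replicate 1 therefore depend in part on depth. The summed level of a 12-gene cDC1 list was 4619 (4327 to 4925) CPM in replicate 1 and 4537 (4392 to 4686) CPM in replicate 2, against 230.2 and 104 in the other HPs. Naaa, a lysosomal lipid amidase, reached 1036 and 1007 CPM. Batf3 reached 154 and 264 CPM, the adhesion molecule Cadm1 253 and 219, and Wdfy4, needed for cross-presentation, 372 and 286. Tlr3, the sensor of double-stranded RNA, was at 173 and 109 CPM. Xcr1 was low, with 0 UMIs in replicate 1 (upper bound 18.3 CPM) and 14.7 CPM (7.62 to 25.8) in replicate 2.

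Of the gene lists, MHC class II had the highest sum in the E16.5 DCs. The class II list summed to 36667 and 34859.8 CPM in the DCs of the 2 replicates, against 1539.7 and 288 CPM in the other HPs. Cd74, the invariant chain that guides class II molecules, made up 13593 and 13941 CPM, and the transactivator Ciita 238 and 162. In single cells class II transcripts were 1.23% to 6.11% of all UMIs in replicate 1 and 0.964% to 8.70% in replicate 2. Every one of the 65 cells therefore held them. Over both replicates the DCs were at 35219 CPM, and the next of the 17 clusters were HSPC1 (198 cells) at 7683 and UD1 (79 cells) at 2185 CPM. HSPC1 also held 1324 CPM of H2-Aa and 55.5 of Cd209a, above the 11.8 of the DCs, with 92.8 CPM of the cDC1-restricted list. A list of 9 class I presentation genes (among them Tap transporters, immunoproteasome subunits and B2m) summed to 3429 and 4791 CPM, against 1222 and 2100.4 in the other HPs.

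Among the DC factors and receptors, the E16.5 DCs held more Flt3 and less Kit than the other HPs. Flt3, the receptor that drives DC development, stood at 79.3 and 88.5 CPM against 9.51 and 2.57 in the other HPs. Zbtb46, a factor of conventional DCs, stood at 49.6 and 20.9 against 1.45 and 0.421 CPM, and Itgax, which encodes CD11c, at 34.7 and 61.4 against 2.47 and 0.789. Id2, which cDC1s require, was at 1397 and 1565 CPM. Kit itself was below the other HPs in both libraries, at 154 and 49.1 against 351 and 189 CPM. The maturation and migration list (11 measured genes) summed to 258 and 183 CPM against 178 and 97.3 in the other HPs. Most of it was Cd86, a costimulatory ligand for T cells, at 119 and 115 CPM, and Cd83 at 124 and 29.5. Ccr7, the receptor of DCs that migrate to lymph nodes, and Ccl22 had no UMI in either replicate.

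At E16.5 the cDC2 list summed to 238 and 145 CPM in the DCs against 243 and 86.5 in the other HPs, and the pDC list to 362 and 398 against 281 and 384. Their largest members were Clec12a (119 and 97.1 CPM) and Bst2 (188 and 239.6 CPM), which other cells carry as well. The genes more restricted to each subset were low. Cd209a had 11 UMIs in replicate 1 (54.5 CPM), all in 1 cell, and 1 UMI in replicate 2, and Irf4 and Clec10a had none. Sirpa was at 29.7 and 0 CPM against 95.9 and 23.7 in the other HPs. The 5 measured pDC-restricted genes (Siglech, Cox6a2, Ccr9, Pacsin1 and Spib) summed to 9.91 and 9.83 CPM, below the 29.6 and 21.7 CPM of the other HPs. Whether the B220 gate bore on these pDC levels was not tested. A cell was counted as holding a subset with at least 2 UMIs over its restricted list (8 genes for cDC1, 5 measured for cDC2 and for pDC). By this count 7 of 9 and 56 of 56 DCs held the cDC1 list alone, the other 2 cells held both cDC lists, and 0 of 65 held the pDC list, which allows a share of cells with 2 or more such UMIs of up to 5.52% (exact binomial upper bound). With 1 UMI as the minimum 15.4% held it, so that the bound does not limit the share of cells with any pDC-restricted UMI. Of the other HPs 8.17% and 8.60% held 2 or more. A count of 2 UMIs did not single out the DCs, since 64.2% of the 551 and 35.5% of the 4696 other HPs also reached it for the cDC1 list, among them 76 of 85 and 337 of 499 cells coded Mast2i. By level the DCs stood apart, at 1176 CPM of the cDC1-restricted list against 165 in Mast1, the next of 17 clusters. With every cell thinned to 2000 UMIs the cDC1 list alone was held by 48 of 65 DCs (73.8%) and by 2 of 600 T cells of E16.5 (0.333%), whose clusters ranked from 8 to 17 of the 17 by level of the list.

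Transcripts of other lineages were present in the E16.5 DCs and lay in part in single cells. The mast and basophil list summed to 7404 CPM in replicate 1 and 186 CPM in replicate 2, against 36835 and 26658 in the other HPs. In replicate 1, 1482 of the 1494 mast UMIs were in the deepest DC (48585 UMIs), which also held 311 of the 351 macrophage UMIs. T and NK genes summed to 74.3 and 899 CPM, and in replicate 2 a single cell held 230 of the 732 UMIs. Neutrophil genes summed to 0 and 9.83 CPM. Whether these UMIs came from doublets or free RNA was not tested.

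At P0 the cDC1 and class II genes led the DCs again. Clec9a, Ifi205, H2-Aa, H2-Eb1, Cd74, Sult1a1, Naaa, Plbd1, H2-Ab1 and Batf3 had the largest ratios over the other HPs, and 4 of the 10 (H2-Aa, H2-Ab1, Ifi205 and Plbd1) were among the leading genes of both E16.5 libraries. The cDC1 list summed to 2672 (2578 to 2768) CPM against 73.0 in the other HPs, and the class II list to 25509.5 against 177 CPM. In single cells class II transcripts ranged from 0.0908% to 6.28% of UMIs with a median of 3.20%, and 84 of 94 cells were over 1%. Flt3 was at 92.9 CPM against 34.0, Zbtb46 at 19.98 against 1.17 and Kit at 124 against 154. The maturation and migration list summed to 264 CPM against 58.6, with Cd83 at 122, Cd86 at 92.1 and Ccr7 at 0.868 CPM.

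The P0 DCs mostly held cDC1 genes, and a few held Cd209a. Of the 94 cells 77 held the cDC1-restricted list alone (81.9%, 72.6 to 89.1), 3 the cDC2 list alone, 9 both and 5 neither. With every cell thinned to 2000 UMIs these counts were 47 (50%), 5, 0 and 42. Of the other P0 HPs 15.6% also reached 2 UMIs of the cDC1 list. Cd209a reached 22.6 CPM (14.8 to 33.1), with UMIs in 7 cells, and the 68 cells with 5 or more cDC1-restricted UMIs held none of it, so that all 26 Cd209a UMIs lay in the other 26 cells. The division at 5 UMIs was chosen after values were seen. The pDC-restricted list summed to 40.8 (29.99 to 54.3) CPM against 25.1 in the other HPs, with Siglech at 13.0 CPM and Ccr9 at 19.98. It was held by 9 of 94 DCs (9.57%, 4.47 to 17.4), and by 9.04% of the 6114 other P0 HPs, so that the share did not set the DCs apart. After thinning it was held by 1 of 94 DCs. Siglech UMIs were found in 8 of 94 cells. Other P0 clusters held more of the list, with 289 CPM in LymP, 174 in TCell5 and 134 in Mono2, and Siglech stood at 126 CPM in Mono2.

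**Figure D2:**
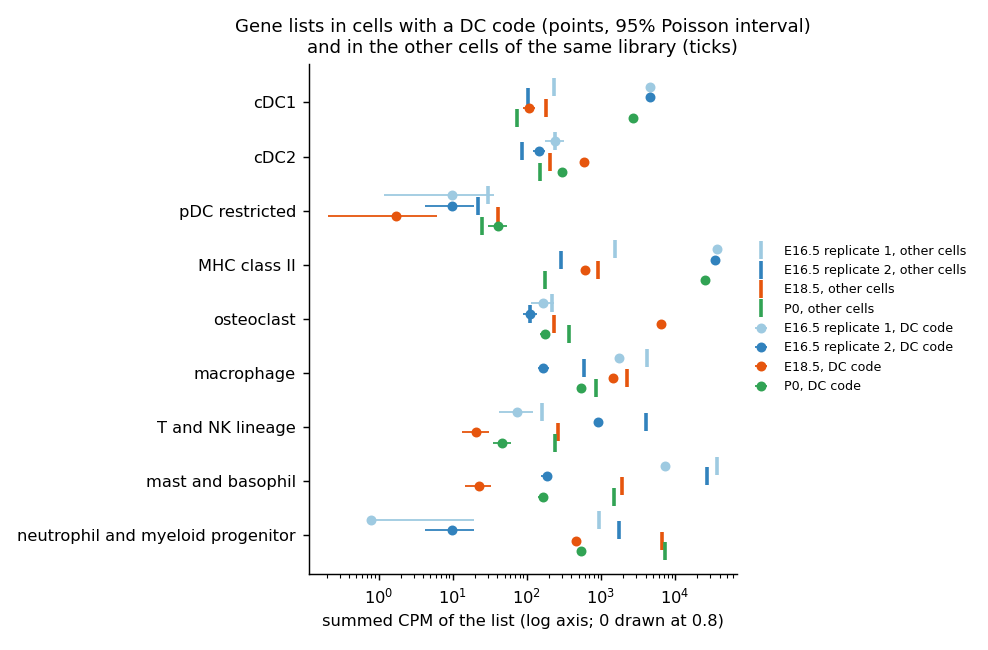
Summed CPM of 9 gene lists (log axis) in the cells with a DC code (points with 95% Poisson intervals) and in the other HPs of the same library (ticks), by library. The cDC1 and class II points of E16.5 and P0 lie far right of their ticks, and the E18.5 point does so for the osteoclast list.

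Between E16.5 and P0 most genes of the cDC1 and class II lists differed by less than 2-fold, as did most of all genes compared. The medians of both lists were lower at P0. Of 4952 genes with at least 50 UMIs over both stages, 297 (6.00%) were at least 2-fold higher at P0 and 98 (1.98%) at least 2-fold higher at E16.5, and the median log2 ratio of all genes was 0.03 (0.11 for E18.5 over E16.5 and 0.06 for E18.5 over P0). Without E16.5 replicate 2, which left 9 cells at that stage, 447 were higher at P0, and without 37 E16.5 and 13 P0 cells that held 3 or more UMIs of another lineage 56 were higher at E16.5. Of the 11 measured cDC1 genes 0 were past 2-fold upward and 1 downward, and of 11 measured class II genes 0 and 1. Their median log2 ratios were -0.69 and -0.40. Irf8 was 1014 CPM at P0 and 1891 CPM over both E16.5 replicates, which is 1.87-fold (1.73 to 2.01) lower, and Naaa was 1.93-fold (1.75 to 2.14) and Clec9a 1.61-fold (1.29 to 2.02) lower. Ifi205 stood at 257 against 231 CPM, with a ratio of 1.11-fold (0.933 to 1.32). The P0 levels of Irf8, Naaa and Clec9a lay below those of each E16.5 replicate. These sums include cells with few cDC1 UMIs, as 62 of 65 E16.5 and 68 of 94 P0 DCs held 5 or more cDC1-restricted UMIs. In those cells Irf8 was 1895 CPM at E16.5 and 1174 at P0, and Naaa 1024 and 614. Ifi205 was 230 and 289 CPM, and Clec9a, a gene of the dividing list, 192 (166 to 221) and 144 (120 to 172). The part of the mix of cells in the ratios was not tested.

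The genes past 2-fold in these lists were Itgae and Ciita. Itgae, the integrin CD103 of tissue cDC1s, was at 144 and 88.5 CPM in the E16.5 replicates and 16.5 CPM at P0, 6.03-fold (3.67 to 10.4) lower. It was detected in 8 of 9, 27 of 56 and 15 of 94 DCs, whose median depth fell in the same order (18224, 11998 and 9679 UMIs). In the other HPs the cDC1-restricted list, to which Itgae belongs, also fell, from 154 and 79.0 CPM to 33.8. The part of depth and of other cells in the Itgae values was not tested. Ciita was 238, 162 and 65.1 CPM, 2.72-fold (2.07 to 3.61) lower at P0, while the genes it controls were less apart: H2-Aa 1.45-fold (1.40 to 1.51), H2-Eb1 1.32-fold (1.26 to 1.37) and H2-Ab1 1.22-fold (1.18 to 1.26) lower. Of 10 measured genes of the factor and receptor list Itgax alone was past 2-fold (34.7, 61.4 and 26.1 CPM, 2.15-fold (1.36 to 3.47) lower), with E16.5 replicate 1 nearer to P0 than to replicate 2. Of the 9 class I genes 0 passed 2-fold. Of all genes compared 6.00% were past 2-fold upward and 1.98% downward, so that neither count sets its list apart. B2m was 1.63-fold (1.46 to 1.81) higher and Tap2 1.75-fold (1.37 to 2.25) lower at P0.

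Ifi27l2a, a gene that responds to interferon, had the largest ratio toward P0 among genes that are not of the neutrophil list. It stood at 4.96 and 24.6 CPM at E16.5 and at 824 CPM at P0, 39.9-fold (25.9 to 64.7) higher. The other HPs of these libraries held 101, 4.13 and 68.7 CPM. Irf7, the master factor of type I interferon genes, was 54.5, 52.8 and 155 CPM, 2.92-fold (2.15 to 4.04) higher at P0. Isg15 and Ifitm3, chosen after their values were seen, were 5.69-fold (3.54 to 9.63) and 4.52-fold (3.90 to 5.27) higher in the DCs, and in the other HPs Ifitm3 was at 226, 217 and 333 CPM. No interferon list was fixed, and of other genes that respond to interferon Ifi205 and Bst2 were within 2-fold (1.29-fold (1.09 to 1.53) for Bst2). Cd83, a marker of DC activation, was 124, 29.5 and 122 CPM, so that P0 was over 2-fold above E16.5 replicate 2 but not above replicate 1.

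Ly6a, which encodes Sca-1, was among the 10 genes with the largest ratios at P0. Its level was 49.6 CPM (23.8 to 91.1) and 36.9 CPM (24.9 to 52.6) in the E16.5 replicates and 321 CPM (289 to 356) at P0, 8.16-fold (5.88 to 11.6) higher. The other HPs stood at 8.42, 15.1 and 18.1 CPM. Klf4, a factor of cDC2s and monocytes, was 3.02-fold (2.03 to 4.60) higher at P0 (19.8, 35.6 and 98.1 CPM). The chemokine Ccl4 was 7.30-fold (5.38 to 10.1) higher (4.96, 56.5 and 338 CPM), with 32.4, 4.36 and 71.4 CPM in the other HPs. Of 7 measured genes of the 8-gene monocyte list, Ly6c2, Ms4a4c and Ms4a6c were past 2-fold upward and F13a1 downward. Ly6c2 stood at 2.02 CPM at E16.5 and 53.2 at P0 in the DCs with 5 or more cDC1-restricted UMIs. Ly6c2 and F13a1 thus reached the minimum of 50 UMIs mostly through 1 stage, which nearly fixed their calls. The number is therefore not set against the share of all genes. F13a1 was 0 CPM in E16.5 replicate 2 and 268 in replicate 1.

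The remaining genes with the largest ratios were mostly neutrophil, histone, T cell and mast cell genes. Ctsg, Mpo and Prtn3, proteases and the peroxidase of neutrophil progenitors, stood at 102, 201 and 178 CPM in the P0 DCs and at or under 4.91 CPM at E16.5. The neutrophil list held 616 UMIs in the P0 DCs, of which 298 lay in 1 cell, and summed to 7381 CPM in the other P0 HPs against 955 and 1739 at E16.5. S100a4 was 8.70-fold (5.01 to 16.3) higher, from 13.8 to 119.9 CPM. Hist1h3c, Hist1h4d and Hist1h2ap were 13.8-, 10.3- and 9.15-fold higher in the P0 DCs than in those of E16.5, and Hist1h2ap was also higher in the other HPs (500.1 against 107 and 129 CPM). In the opposite direction Cd3g, Trbc1, Trbc2, Tpsb2, Cma1, Cpa3 and Hdc are T and mast cell genes, and Bcl2a1b, Bcl2a1d and Rtl8a completed the 10. In the other HPs the mast list summed to 1498 CPM at P0 against 36835 and 26658 at E16.5, and the T and NK list to 243 against 162 and 4019.9. The part of these cells in the ratios was not tested. The survival genes Bcl2a1b and Bcl2a1d were 4.498-fold (3.01 to 6.90) and 3.28-fold (2.24 to 4.90) lower at P0. They are copies of one family, as the histone genes are, so that reads may have been split between copies.

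**Figure D3:**
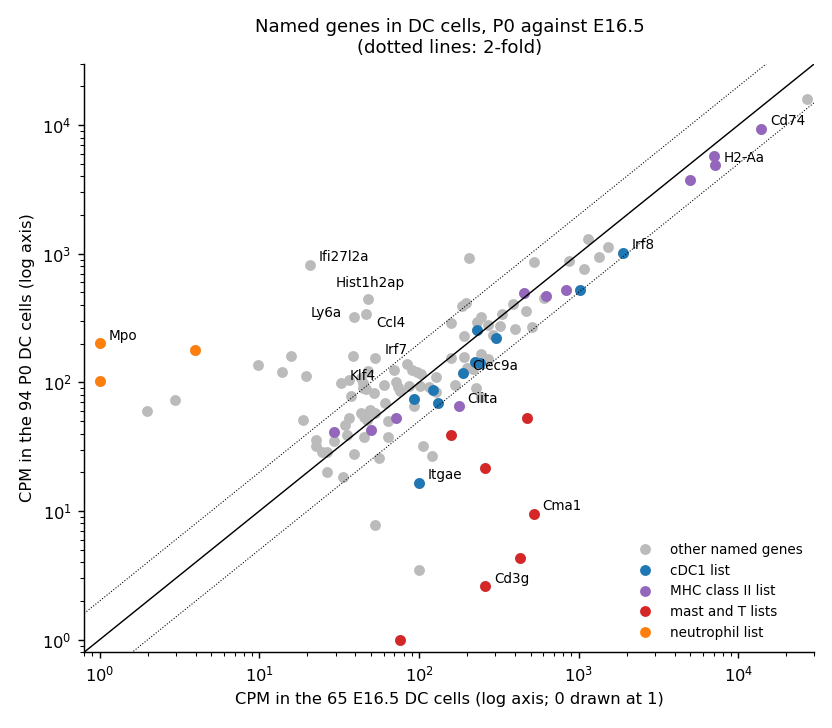
CPM of the named genes in the 94 P0 DCs (vertical, log axis) against the 65 E16.5 DCs (horizontal, log axis), with the line of equality and dotted lines at 2-fold. Most cDC1 and class II genes run along or just under the diagonal, while Itgae and Ciita lie past the lower 2-fold line. Ly6a, Ifi27l2a and Ccl4 lie above, and mast and T cell genes lie below.

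Cell cycle genes summed to 2106, 2129, 2291 and 3127 CPM in E16.5 replicate 1, E16.5 replicate 2, DC2 and the P0 DCs, against 2293, 3992, 3491 and 3455 in the other HPs. In E16.5 replicate 1, 352 of the 425 cell cycle UMIs (82.8%) came from 1 of the 9 cells, so that its sum mostly describes that cell. The largest share of 1 cell in the other 3 libraries was 13.7%. With every cell thinned to 2000 UMIs the 23-gene list took a median of 0% of UMIs in E16.5 replicate 1, 0.05% in E16.5 replicate 2, 0.1% in DC2 and 0.175% at P0. The medians of the other HPs were 0.1%, 0.3%, 0.2% and 0.3%. The upper quartile of the P0 DCs was 0.5%, above the 0.45% of the other P0 HPs. No DC of E16.5 or P0 and no DC2 cell reached 1%, while 12, 36, 13 and 17 of the 529, 992, 709 and 952 other HPs sampled did (2.27%, 3.63%, 1.83% and 1.79%). At such shares few or none of the 9, 56, 41 and 94 thinned cells with a DC code would reach 1%. Their absence therefore does not set these cells apart. Between E16.5 and P0, 5 of the 23 genes were past 2-fold upward (Pcna, Pclaf, Aurkb, Top2a and Rrm2) and 0 downward, against 6.00% and 1.98% of all genes compared, with Top2a at 253, 183 and 414 CPM.

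The 43 DC2 cells of E18.5 carried genes of bone resorption instead of the DC programme. Ctsk, Atp6v0d2, Bdh2, Nrp2, Prdm1, Mmp9, Acp5, Myo1e, Jdp2 and Mmp14 had the largest ratios over the other HPs. Ctsk, the collagen-degrading protease of osteoclasts, stood at 1552 CPM (1482 to 1626) against 0.848 in the other HPs, Acp5, the tartrate-resistant phosphatase, at 1850.0 against 21.9, and Mmp9 at 1005 against 10.3. UMIs of Acp5 were found in 41 of 43 cells, of Mmp9 in 36 and of Ctsk in 23. Tnfrsf11a, the receptor for RANKL, was at 132 CPM, Nfatc1, the factor it induces, at 373 and the fusion protein gene Dcstamp at 63.0. Calcr and Oscar had no UMI. The 14-gene osteoclast list summed to 6500.4 (6354 to 6649) CPM, rank 1 of 19 clusters at E18.5, and its share of a cell's UMIs ranged from 0.0144% to 2.70% with a median of 0.456%. S100a4, a calcium-binding protein, reached 2859.9 CPM.

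In DC2 the 12-gene cDC1, the class II and the pDC-restricted lists were below the other HPs. The cDC2 list and the list of DC factors and receptors were above them. The cDC1 list summed to 108 (89.7 to 128) CPM, below the 182 of the other HPs, and rested largely on Cadm1 (59.5 CPM). The 8 cDC1-restricted genes, Cadm1 among them, summed to 78.5 CPM (63.2 to 96.4), not below the 69.5 of the other HPs. The class II list summed to 608 CPM against 924, of which the protease Ctss, also used by macrophages, made up 355. The pDC-restricted list summed to 1.72 against 40.9 CPM. The factor and receptor list summed to 1079.8 against 801 CPM, of which Spi1, a factor of all myeloid cells, made up 566. Flt3 and Kit had 1 and 2 UMIs in the 43 cells, although the cells were sorted as Kit-positive, whereas Csf1r, the receptor of the monocyte and osteoclast lineage, was at 287 CPM. The cDC2 list summed to 582 against 208 CPM, from Clec12a (247), Sirpa (225) and Itgam (87.1), which other myeloid cells carry too, with 0 UMIs of Cd209a and Irf4. By the count of at least 2 UMIs 17 of 43 cells held the cDC2-restricted list alone and 20 both lists, and Sirpa and Cadm1 held most UMIs of the 2 lists. Thinned, 9 of 41 cells held the cDC2 list alone, 1 the cDC1 list alone and 0 both. Macrophage genes summed to 1467 CPM against 2267, with Mrc1 at 0. Of the 532 neutrophil UMIs in DC2, 482 lay in 1 cell.

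Against the E16.5 DCs, 796 of 4958 genes (16.1%) were at least 2-fold higher in DC2 and 689 (13.9%) at least 2-fold higher at E16.5. The latter count was 318 without E16.5 replicate 2 and 357 without the cells that held another lineage's UMIs. With ratios centred on the median gene the counts were 690 and 780. Many members of the lists reached 50 UMIs through 1 stage only, so their levels are given and not their counts. The cDC1 list held 125 UMIs in DC2 against 932 and 3693 in the E16.5 replicates, the class II list 705 against 7399 and 28374, and the osteoclast list 7537 against 33 and 90. Irf8 was 146-fold (88.4 to 262) and H2-Aa 201-fold (148 to 279.9) lower in DC2. Sirpa was 38.1-fold (17.3 to 105), Csf1r 8.33-fold (5.87 to 12.2) and Acp5 75.2-fold (50.8 to 116) higher. Ctsk, with no UMI in 65 E16.5 DCs, was at least 526-fold higher (3 counts over E16.5). The class I list summed to 1744 CPM in DC2 and 1627 in the other E18.5 HPs, with Tap1 at 31.9 CPM in DC2.

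Against the P0 DCs the same lists stood apart, and both contrasts share the DC2 cells. Of 5259 genes 628 (11.9%) were at least 2-fold higher in DC2 and 775 (14.7%) at least 2-fold higher at P0. Without mitochondrial and ribosomal protein genes the counts were 732 and 697. The cDC1 list held 3076 UMIs in the P0 DCs, the class II list 29372 and the osteoclast list 201. Ccl4, H2-Eb1, Jaml, H2-Ab1 and Btg2 had the 5 largest ratios toward P0. Ly6a, 321 CPM at P0, had 0 UMIs in DC2.

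Cells with the cDC1 profile were present at E18.5 under a monocyte code. Of the 19 clusters of that stage, the 129 cells coded Mono1ii held the highest cDC1-restricted sum (rank 1, 729 CPM) and the highest class II sum. Within Mono1ii, 58 cells held 5 or more cDC1-restricted UMIs, a division chosen after values were seen, with 4, 3, 2 and 0 cells at 3, 4, 5 and 6 UMIs. These 58 cells, 1.67% of the library's HPs (1.27 to 2.15), held 186 CPM of Clec9a, 2018 of Irf8, 247 of Batf3 and 5983 of H2-Aa. Their class II list summed to 29671 CPM, between the P0 and E16.5 DCs. As Clec9a belongs to the list that made the division, its level is fixed in part by it, whereas Irf8, Batf3 and H2-Aa do not belong to it.

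Summed over the other 71 cells of Mono1ii, macrophage genes were high and cDC1 genes low. The division was not clean in single cells. Of the 58 cells, 2 held 0.103% and 0.0917% of UMIs from the class II list and 1.77% and 1.42% from the macrophage list. Of the 71 cells, 2 held 3.51% and 2.66% from the class II list and 0.0218% and 0.0436% from the macrophage list. Mrc1, the mannose receptor, was 2187 CPM in them and 45.8 in the 58 cells, C1qa 3159 and 168, and F13a1 3124 and 85.7. Irf8 was 145 and Clec9a 2.17 CPM in the 71 cells. Of the genes that differed between E16.5 and P0, the 58 cells held Itgae, a gene of the dividing list, at 79.9 CPM (62.0 to 101), against 99.4 at E16.5 and 16.5 at P0. Ly6a stood at 256 CPM (223 to 292), between 39.4 at E16.5 and 321 at P0. Klf4 was at 93.9 CPM (74.5 to 117) against 98.1 at P0, and Isg15 at 166 CPM (139 to 195) against 112. Ifi27l2a was at 283 CPM (248 to 321), against 21.2 and 690 in the E16.5 and P0 DCs with 5 or more cDC1-restricted UMIs. In the other 71 cells Ifi27l2a and Klf4 were higher (950 and 197 CPM), and Ly6a and Isg15 lower (34.8 and 97.8 CPM), than in the 58.

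**Figure D4:**
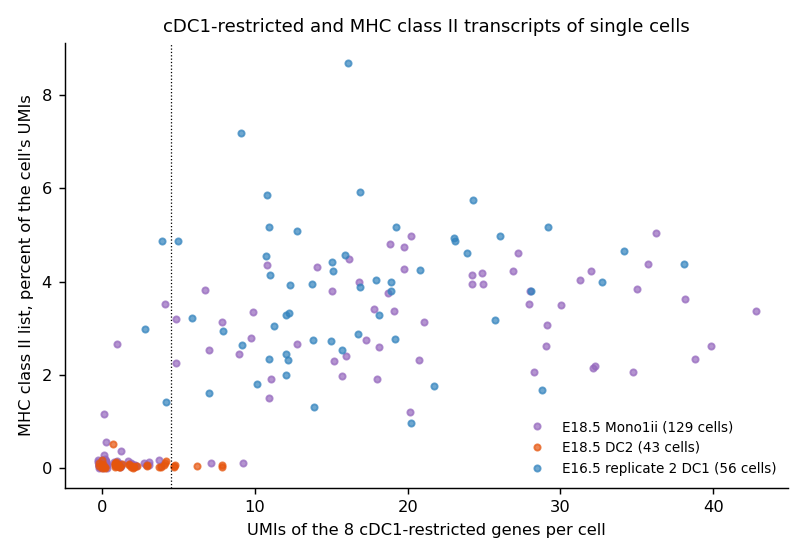
UMIs of the 8 cDC1-restricted genes (horizontal) against the percent of UMIs from the class II list (vertical) in single cells of E18.5 Mono1ii, E18.5 DC2 and E16.5 replicate 2 DC1, with a dotted line at the division of 5 UMIs. The DC2 cells lie along the bottom, with some right of the line. Of the 58 Mono1ii cells right of the line, 56 lie from 1.19% upward, among the E16.5 DCs, and the other 2 lie at the bottom.

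In the adult, which had no DC code, the highest cDC1-restricted and class II sums were those of 176 cells coded Mono6 (rank 1 of 18 clusters for both). They held 79.1 CPM (62.1 to 99.3) of Clec9a, 1252 of Irf8, 2064 of H2-Aa and 33.1 of Xcr1, and a class II sum of 11563 CPM. Cd209a was at 83.3 CPM (65.9 to 104). The 36 cells with 5 or more cDC1-restricted UMIs held 3.19 CPM of Cd209a and 89.3 of Xcr1, and the other 140 cells 124 and 4.82, so that Cd209a lay almost entirely outside the 36 cells. Xcr1 belongs to the dividing list. Of the genes outside it, Batf3 stood at 217 CPM (168 to 275) in the 36 cells and 201 (167 to 239) in the other 140. Irf8 was at 1393 and 1181 CPM, and the class II list at 12917 and 10881, so that these were much nearer between the 2 groups than Cd209a. No gap in UMIs divided them (18, 11, 10 and 12 cells at 3, 4, 5 and 6 UMIs), and at a median of 4135.5 UMIs shallow cells could fall under the division. Itgae had no UMI in the 176 cells and Ly6a stood at 5.34 CPM. S100a8, a neutrophil gene that stood at 14123 CPM in all adult HPs, was at 4835 CPM, with 7886 in the 36 cells and 3298 in the other 140. The neutrophil list summed to 25152 and 10040 CPM, so that it moved with the division, and its part in the values above was not tested. Of the 176 barcodes 10 also occurred in other libraries. Without those 10 cells Clec9a was 79.9 and Cd209a 83.2 CPM.

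Surface Sca-1 was measured with an antibody to Ly6A/E and was high on the P0 DCs. Counts per cell had a median of 61.5 (range 1 to 1029) in the 94 P0 DCs and of 3 in the other HPs, the highest median of 20 clusters, with 14 for the next. A centred log-ratio (CLR) over 1 was reached by 76 of 94 DCs (80.9%, 71.4 to 88.2) and by 22.8% of the other HPs. At E16.5 the medians were 5 against 4 in replicate 1 and 1 against 1 in replicate 2, with 2 of 9 and 6 of 56 DCs over a CLR of 1. DC2 at E18.5 had a median of 3 against 3, with 6 of 43 cells over. Replicate 2 had low counts of CD48 (a median of 7 in the other HPs, against 76 to 107 in the other 3 libraries). Its medians of CD135 and CD150 in the other HPs (both 1) were below those of replicate 1 (3 and 7) but not below those of P0 (0 and 1). At a Sca-1 median of 1 in its other HPs, against 4 in replicate 1, a difference of its DCs could be missed.

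At P0 the 76 cells over the CLR level also held more Ly6a transcript, with 353.8 CPM (317 to 393) against 148 CPM (97.9 to 216) in the other 18 cells. The 58 Mono1ii cells of E18.5 with 5 or more cDC1-restricted UMIs had a median of 15.5 Sca-1 counts (range 0 to 198), and 39 of 58 (67.2%, 53.7 to 79.0) were over the CLR level. The other 71 Mono1ii cells had a median of 6 with 24 over (33.8%). In the adult Mono6 cells with 5 or more cDC1 UMIs the median was 3.5, with 14 of 36 over, against a library median of 2. Sca-1 counts were not compared between libraries, whose CD48 counts differed in depth as given above.

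**Figure D5:**
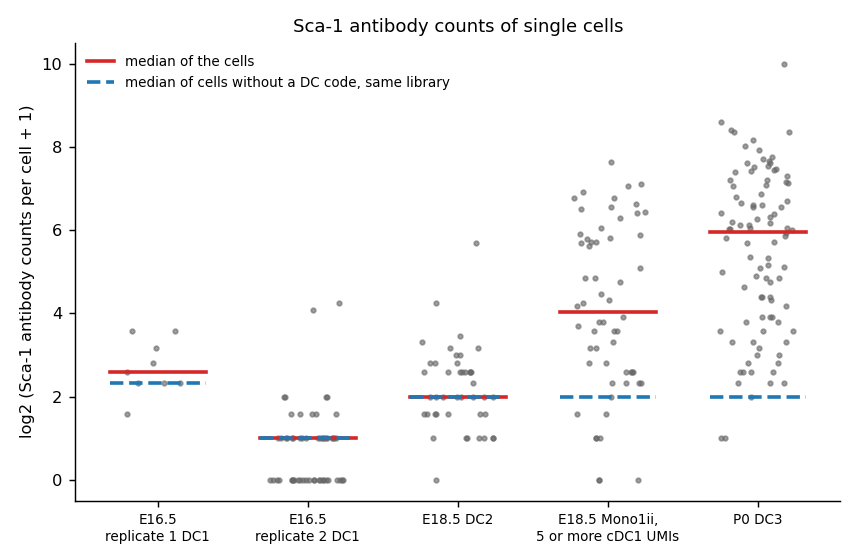
Sca-1 antibody counts per cell as log2 of counts + 1 in the cells with a DC code of each library and in the 58 E18.5 Mono1ii cells with 5 or more cDC1 UMIs, with the median (solid red) and the median of the library's cells without a DC code (dashed blue). The P0 cells have a median of 61.5 against 3, and the E16.5 and DC2 medians are at or next to their library's.

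Of the other antibodies, CD48, carried by most committed blood cells, had a higher median in the DCs of E16.5 and P0 than in the other HPs (201 against 76, 10 against 7 and 114 against 107, from E16.5 replicate 1 to P0), and 158 against 88 in DC2. CD150, a marker of stem cells, was 5 against 7, 1 against 1 and 0 against 1 in these DCs and 3 against 2 in DC2. CD135, the Flt3 protein, was over a CLR of 1 in 28 of 94 P0 DCs (29.8%, 20.8 to 40.1) and 8.54% of the other P0 HPs. Its counts were low, with a median of 1 against 0, and in the E16.5 DCs and in DC2 the median equalled that of the other HPs.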

How the data were processed

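The authors deposited raw UMI counts per gene (20275 genes) and cell, raw counts of 29 antibodies and a table of cells with library, cell type and cluster code. Reads had been counted by the authors with Cell Ranger 3.1.0 on mm10 and cells filtered and clustered in Seurat 3.1.5 under R 4.0. In the deposited table the mitochondrial share is a fraction. All deposited HP cells were used, and stage and replicate came from the sample labels.

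Members were the cells of the hematopoietic type whose code begins with DC. Members and gene lists were chosen with earlier results of these data known. UMIs were summed over the DCs of a library and given as CPM with exact Poisson intervals, shares with exact Clopper-Pearson intervals, and ratios between stages with exact conditional intervals (Python 3.11.15, scipy 1.17.1, pandas 2.3.3), all at 95% and for counting error only. Genes with at least 50 UMIs over both stages were compared and a ratio of 2 either way was counted. A stage at 0 was set to 3 counts. No test was run, since 3 of the 4 stages had 1 library. On simulated counts every 4- and 8-fold change was recovered for each of the 3 pairs of stages, and 1.29% (P0 over E16.5), 2.18% (E18.5 over E16.5) and 1.01% (E18.5 over P0) of unchanged genes were called. The simulated counts were Poisson, without variation between cells or libraries. Changes were planted only upward and only in genes expected above the minimum of 50 UMIs. These rates therefore do not carry over to the measured cells. Antibody counts were normalized within each library by the CLR of 1 antibody over its cells.

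Named genes were the members of the fixed lists, the 10 genes with the largest ratio of DCs over other HPs per library and the 10 each way per pair of stages (at least 50 UMIs and 100 CPM in the higher group, without mt-, Rpl and Rps genes or Gm42418). Cells were thinned to 2000 UMIs for subset and cell cycle shares, leaving out 2 of the 43 DC2 cells, with at most 600 T cells and 1000 other HPs drawn per group. No doublet caller was run. Cells with 3 or more UMIs of B, T and NK, mast or erythroid lists were removed as an alternative. Of the listed genes, Clec4a4, Klk1, Ifi30 and Il12b had no row in the matrix used here. Promoter windows are from RefSeq, GRCm38.p6.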

Additional observations from a re-analysis of the deposited data

How the results depend on the processing

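Of 187 recomputed values, 127 stayed within the range set for them and 60 moved. The range was the counting interval (at E16.5 the wider of it and 1 SD between the replicates), the quartiles of the cells for cell cycle shares, and 1.5 times for counts of genes. Leaving out shared barcodes or the E16.5 cell rich in mast transcripts, both chosen after seeing the data, moved none past these ranges, with H2-Aa at E16.5 at 7333 CPM without that cell against 7096 CPM. The E16.5 share ranged from 1.18% to 1.61% without one replicate, and the E18.5 share was 1.67% without cells under 1000 UMIs and 1.70% without undefined clusters.

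Without mitochondrial and ribosomal protein genes, Clec9a, Irf8 and H2-Aa were 260.2, 2603, 9768 CPM at E16.5 and 163, 1410.0, 6786 at P0, and H2-Aa was 52.9 at E18.5. Without possible doublets they were 258, 2286, 8250.0 and 153, 1264, 6200.5. As the mean of single-cell CPM, Irf8 was 2015 at E16.5, H2-Aa 24.7 at E18.5, and the 3 genes 142, 1117 and 5801 at P0. Without one E16.5 replicate they ranged over 179 to 228, 1769 to 1922 and 6857 to 8063 CPM.

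The cDC1 share fell to 73.8% (E16.5) and 50% (P0) at 2000 UMIs and to 27.7% and 17.0% at 1000, and was 77.8% to 100% without one replicate. The pDC share was 15.4% and 22.3% with 1 UMI as the minimum, and 1.06% (2000) and 0% (1000) at P0. With a minimum of 200 UMIs the genes past 2-fold numbered 86 and 16 (P0 over and under E16.5), 292 and 173 (E18.5 over and under E16.5), and 203 and 183 (E18.5 over and under P0). The balance of the 2 directions was not stable between DC2 and the other stages (690 over and 780 under E16.5 with ratios centred on the median gene, and 732 over and 697 under P0 without mitochondrial and ribosomal protein genes). With a minimum of 1 UMI the counts were 1939, 1708, 2693, 2723, 2343 and 2903. Without possible doublets, 56 were higher at E16.5 than at P0 and 357 than at E18.5. Without one E16.5 replicate the counts ranged from 347 to 447 (higher at P0 than at E16.5), 94 to 120 (the reverse), 803 to 966 (higher at E18.5 than at E16.5) and 318 to 601 (the reverse).

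At a CLR level of 1.5, CD48 was over it in 44.4%, 8.93%, 46.5% and 5.32% of cells with a DC code and Sca-1 in 0%, 3.57%, 4.65% and 70.2% (E16.5 replicate 1, replicate 2, E18.5, P0). At 0.75, CD48 was 71.4% (E16.5 replicate 2) and 55.3% (P0), and Sca-1 44.2% (E18.5). No paired analysis was possible because no test was run and 3 stages had 1 library. Of stages with 1 library, differences between animals and stages cannot be told apart, and 9 cells in E16.5 replicate 1 limit every value there.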
